A study of Mus musculus with 6 samples.

Results

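The quiescence and Notch pathway genes described here are 32 listed mouse genes, 13 of the Notch pathway and 19 linked to satellite cell quiescence, out of 17084 genes with enough reads to be tested. They were taken by name, with earlier results of these data known, and all 32 passed the filter on low counts. RNA was sequenced from muscle satellite cells sorted by fluorescence 30 h after cardiotoxin, a snake venom toxin that destroys muscle fibres, was injected into tibialis anterior and gastrocnemius muscles of adult C57BL/6 mice. The groups were Jmjd3 KO (a knockout of Kdm6b, the gene of the JMJD3 protein), Utx KO (a knockout of Kdm6a, the gene of UTX) and Tdt control, which the series title calls wild type, with 2 libraries each. All 3 groups were injured and were taken at the same time, so no library holds uninjured, resting cells. No driver or timing of the deletions is named in the sources used, and nothing says whether the 2 libraries of a group came from separate animals, so p-values measure the spread between these libraries, which may be technical.

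Satellite cells are the stem cells of skeletal muscle, which rest under the basal lamina of the fibre and enter the cell cycle after injury. In Notch signalling a ligand of the Delta or Jagged family on one cell binds a Notch receptor on its neighbour, and the freed intracellular part of the receptor joins the DNA-binding protein RBPJ and a Mastermind coactivator to switch on genes of the Hes and Hey families. This pathway is known to hold satellite cells in quiescence, together with calcitonin receptor signalling, receptor tyrosine kinase inhibitors and contacts with the niche. JMJD3 and UTX are related enzymes that remove repressive methyl groups from histone H3.

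The libraries held 53750675 to 77675388 estimated reads, and the fewest reads behind a member in any library were 74, for Nrarp. Levels within a gene are given as CPM, the estimated reads of a gene per 1000000 reads of its library after scaling of the libraries, and levels between genes as TPM, the transcripts of a gene per 1000000 transcripts, which is per length. Kdm6a stood at 7.68 and 7.38 CPM in Utx KO, against 32.9 and 34.0 CPM in Tdt control (log2 fold change -2.15 ± 0.06, SE; edgeR adjusted p = 1.02e-05). Kdm6b stood at 15.9 and 16.5 CPM in Jmjd3 KO, against 29.9 and 22.7 CPM in Tdt control (-0.70 ± 0.12, edgeR adjusted p = 0.0243). Both targeted genes were lower in the libraries labelled with their knockout. All 10 satellite cell markers were detected, with Pax7, the transcription factor gene that marks these cells, at 17.0 to 19.5 TPM and Des, the desmin gene, at 221 to 316 TPM. No marker of the 5 other cell types examined was at 0 in all libraries. The summed endothelial level was 60.9 and 81.4 CPM in Jmjd3 KO, 60.2 and 51.2 CPM in Utx KO and 68.9 and 78.2 CPM in Tdt control, over 13 genes. The summed mural cell level was 247.5 and 256.5 CPM in Jmjd3 KO, 252.7 and 242.1 CPM in Utx KO and 279.8 and 257.4 CPM in Tdt control. Of the 9 mural genes 7 were below a mean of 1 TPM and the highest was at 79.2 TPM, so few genes set this sum. The immune sums differed more, with macrophage and monocyte markers at 328.7 and 288.9 CPM in Jmjd3 KO, 191.6 and 226.8 CPM in Utx KO and 211.5 and 246.7 CPM in Tdt control, and neutrophil markers at 301.6 and 232.4 CPM in Jmjd3 KO, 200.1 and 233.3 CPM in Utx KO and 148.4 and 161.4 CPM in Tdt control. In sorted but pooled cells, fewer cells of a type and less RNA per cell cannot be told apart.

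The start sites of the members that passed the test in any comparison, described further on, are shown by the 250 bases before them, read 5′ to 3′ on the gene's strand from RefSeq promoters of GRCm38.p6. The table has no entry for Vcam1, so the called members shown are Notch1 (chr2:26503823-26504072, minus strand), Cd34 (chr1:194938571-194938820, plus strand), Cxcr4 (chr1:128592300-128592549, minus strand) and Cav1 (chr6:17306085-17306334, plus strand). Capitals mark TGGGAA, the core of the motif that RBPJ is known to bind, searched on both strands.
Notch1: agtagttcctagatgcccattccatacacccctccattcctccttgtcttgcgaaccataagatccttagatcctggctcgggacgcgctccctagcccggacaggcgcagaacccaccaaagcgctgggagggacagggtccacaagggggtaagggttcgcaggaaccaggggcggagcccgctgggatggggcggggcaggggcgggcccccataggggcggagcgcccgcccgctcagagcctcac
Cd34: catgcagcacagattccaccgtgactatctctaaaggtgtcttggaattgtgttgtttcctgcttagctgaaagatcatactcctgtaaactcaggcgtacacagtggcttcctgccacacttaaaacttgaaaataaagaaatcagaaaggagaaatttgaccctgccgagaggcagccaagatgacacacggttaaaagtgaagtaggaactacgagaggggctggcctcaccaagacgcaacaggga
Cxcr4: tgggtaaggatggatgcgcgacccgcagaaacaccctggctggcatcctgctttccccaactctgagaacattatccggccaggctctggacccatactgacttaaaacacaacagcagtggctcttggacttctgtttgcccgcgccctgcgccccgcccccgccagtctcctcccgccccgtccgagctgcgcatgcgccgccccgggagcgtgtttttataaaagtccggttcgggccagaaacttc
Cav1: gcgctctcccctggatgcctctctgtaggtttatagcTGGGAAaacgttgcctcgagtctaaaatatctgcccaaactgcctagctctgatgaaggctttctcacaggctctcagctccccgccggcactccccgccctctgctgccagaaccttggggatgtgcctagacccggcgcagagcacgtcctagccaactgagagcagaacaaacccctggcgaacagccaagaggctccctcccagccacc
Among these 4 sequences the letters occur in that of Cav1, starting 213 bases before the start site, while the second start that the table gives for Cav1 has a window (chr6:17307390-17307689) without them. Over all RefSeq windows of 300 bases (250 before and 50 after a start), 8397 of 32851 hold the motif (25.6%). Of the 36 windows that the table gives for 25 members, 6 hold it (16.7%), belonging to Cav1, Dag1, Pdk4, Rbpj and Tenm4. The window of Nrarp holds none, and Hes1, Hey1, Heyl, Chrdl2, Itga7 and Msc have no entry. The members' windows held a median of 18.5 CpG pairs, with a range of 2 to 63, against a median of 7 over all windows. All windows were counted, not only those of genes tested here, while every member was tested. These values therefore do not set the members apart from other expressed genes. A match of letters is a description and not a binding site.

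The members spanned a wide range of levels. Sdc4, the gene of the surface proteoglycan syndecan-4, was the highest at a mean of 322 TPM over the 6 libraries, and Nrarp, the gene of a feedback inhibitor of Notch, the lowest at 0.639 TPM. Of the other adhesion and surface members, Dag1 (dystroglycan) had 128 TPM, Cav1 (caveolin-1) 110 TPM and Itga7 (the laminin receptor subunit integrin alpha-7) 97.5 TPM. Vcam1 (a cell adhesion receptor) had 85.9 TPM and Cd34 (a sialomucin of the cell surface) 83.1 TPM. Cdh15 and Tenm4, of the same role, lay lower at 31.6 and 3.525 TPM. Calcr, the calcitonin receptor gene, and Tek, the gene of the angiopoietin receptor TIE2, are quiescence markers. They were low among the members, at 2.29 and 0.859 TPM, with no resting cells to compare. Of the receptors, Notch2 was the highest, at 22.9 to 27.3 TPM over the libraries, above Notch1 at 11.4 to 15.2 TPM and Notch3 at 10.7 to 16.0 TPM, whose ranges overlap. The ligand genes Jag1, Jag2 and Dll1 overlapped too, between 4.56 and 7.82 TPM. RBPJ was encoded at 40.7 TPM and its coactivator gene Maml1 at 8.47 TPM. Of the targets, Hes1 stood at 9.38 to 11.4 TPM, above Hey1 (5.58 to 6.90 TPM) and Heyl (5.07 to 6.92 TPM), which overlap.

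**Figure D1:**
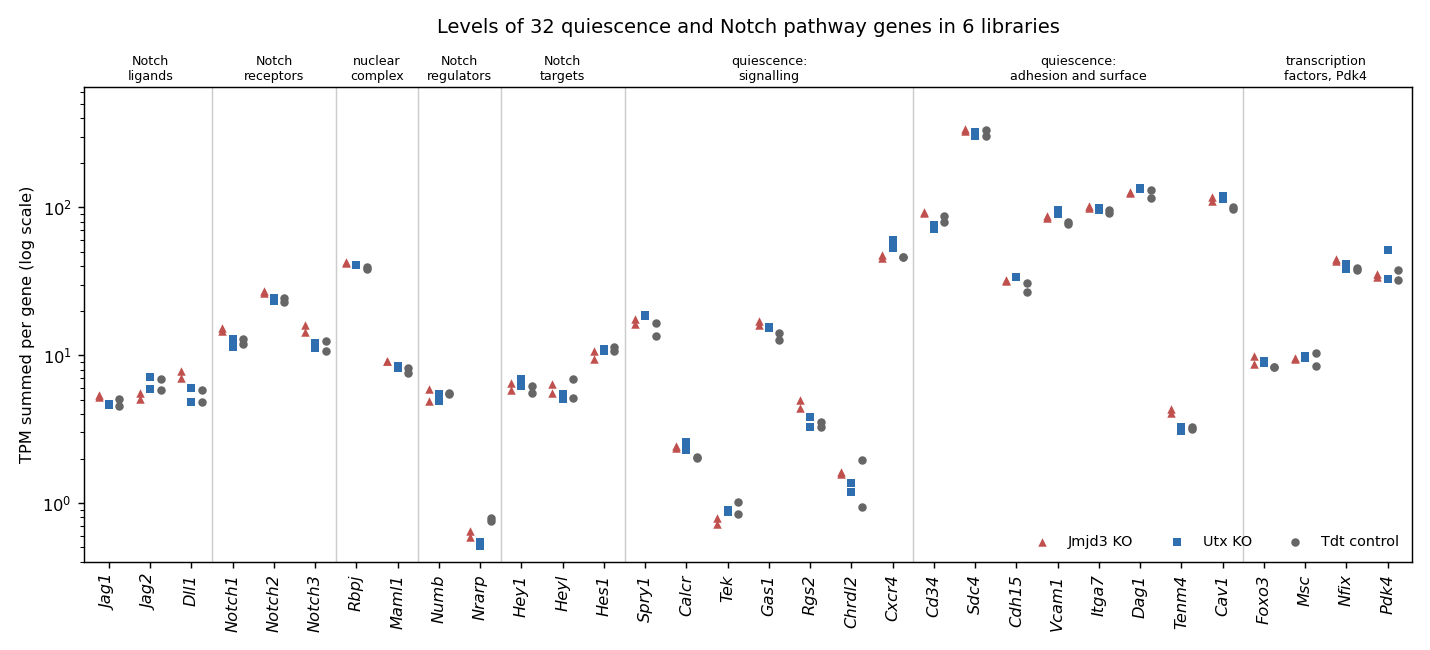
TPM of the 32 members in each library on a log axis, grouped by role, with the Jmjd3 KO, Utx KO and Tdt control libraries side by side (2 points a group, no error bars). The means over the 6 libraries run from 0.639 TPM for Nrarp to 322 TPM for Sdc4, and the 3 groups lie close together within each gene.

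Whether these genes moved with the loss of JMJD3 was asked by setting Jmjd3 KO against Tdt control. None of the 32 members rose or fell by edgeR's quasi-likelihood test at an adjusted p under 0.05, where 1.97% of all 17084 genes tested rose and 1.03% fell. At an unadjusted p under 0.05 there were 9 members against 20.0% of all genes, and DESeq2 called 3, Jag2, Notch1 and Notch3, against 7.64% of 13642 genes. The median log2 fold change of the members was 0.04, against -0.005 over all genes, and the median size of a change, sign ignored, was 0.09 against 0.13. No member reached a size of 0.5, and for 26 of 32 the whole 95% interval lay within 1.5-fold in either direction. The libraries of the 2 groups did not overlap for 20 members, against 51.8% of all genes.

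Within the pathway the receptor genes had the higher values in Jmjd3 KO, without passing the test. Notch1 stood at 193 and 200 CPM in Jmjd3 KO, against 174 and 158 CPM in Tdt control (0.24 ± 0.07, edgeR adjusted p = 0.115). Notch3 stood at 153 and 166 CPM in Jmjd3 KO, against 123 and 135 CPM in Tdt control (0.31 ± 0.08, edgeR adjusted p = 0.0907). Both Jmjd3 KO libraries lay above both Tdt control libraries for each gene. Notch2, at 384 and 388 CPM in Jmjd3 KO and 380 and 340 CPM in Tdt control, had a smaller difference (0.10 ± 0.06, edgeR adjusted p = 0.392). In the authors' deposited table Notch1 had a log2 fold change of 0.11 (adjusted p = 0.341). The model behind the deposited fold changes is not stated, so their sizes cannot be set against those of edgeR. In the authors' deposited table Notch3 (log2 fold change 0.26, adjusted p = 0.0116) and Tenm4, the gene of the membrane protein teneurin-4 (0.24, adjusted p = 0.0141), were the 2 members under 0.05, against 6.10% of 14359 genes with an adjusted p there.

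The ligand genes had values on both sides. Jag2 stood at 27.4 and 30.6 CPM in Jmjd3 KO, against 35.3 and 39.9 CPM in Tdt control (-0.37 ± 0.09, edgeR adjusted p = 0.0763), with no overlap. Dll1 stood at 28.4 and 28.7 CPM in Jmjd3 KO, against 25.7 and 19.6 CPM in Tdt control (0.33 ± 0.13, edgeR adjusted p = 0.218), and its 2 control libraries lay far apart. Jag1, Rbpj, Maml1 and Numb, the gene of an inhibitor of the receptors, had log2 fold changes of -0.02 to 0.13.

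The targets had values on the lower side, again without passing the test. Hes1, a repressor gene switched on by Notch, stood at 12.2 and 13.5 CPM in Jmjd3 KO, against 14.7 and 15.0 CPM in Tdt control (-0.20 ± 0.07, edgeR adjusted p = 0.185). Hey1 stood at 13.7 and 14.9 CPM in Jmjd3 KO, against 14.1 and 15.3 CPM in Tdt control (-0.04 ± 0.08, edgeR adjusted p = 0.832). Heyl stood at 34.0 and 36.3 CPM in Jmjd3 KO, against 32.6 and 44.6 CPM in Tdt control (-0.13 ± 0.13, edgeR adjusted p = 0.622). The groups overlapped for Hey1 and Heyl, whose sign turned when the second control library was left out (0.03 and 0.11). Nrarp, itself a Notch target, had 1.58 and 1.39 CPM in Jmjd3 KO, against 1.97 CPM in both Tdt control libraries (-0.41 ± 0.17, edgeR adjusted p = 0.241). Heyl and Notch3 are also genes of mural cells, of which 8 markers could be tested, 6 were below 0 and none was under an unadjusted p of 0.05 by edgeR or called by DESeq2, and their part in these values was not tested.

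Of the quiescence members, the differences that came nearest to a call in Jmjd3 KO were those of Gas1, a growth arrest gene, and Tek. Gas1 stood at 39.5 and 36.2 CPM in Jmjd3 KO, against 31.7 and 33.4 CPM in Tdt control (0.22 ± 0.06, edgeR adjusted p = 0.109). Tek had 4.86 and 5.25 CPM in Jmjd3 KO, against 6.17 and 7.15 CPM in Tdt control (-0.40 ± 0.11, edgeR adjusted p = 0.111). Neither gene's groups overlapped, and Tek is an endothelial gene too: 10 of 13 endothelial markers were below 0 in this comparison, with a median of -0.08 and none under an unadjusted p of 0.05 by edgeR or called by DESeq2, and their part was not tested. Of 10 fibro-adipogenic markers 7 were above 0 here, with a median of 0.19. By edgeR 4 were higher at an unadjusted p under 0.05 and none was called, while DESeq2 called Dcn and Gsn as higher. All 9 neutrophil markers and 9 of 10 macrophage and monocyte markers were above 0. Of these, 5 and 2 were called as higher by edgeR, against 1.97% of all genes. The part of these cells in the member values was not tested. Calcr stood at 7.95 and 7.63 CPM in Jmjd3 KO, against 7.42 and 7.88 CPM in Tdt control (0.03 ± 0.09, edgeR adjusted p = 0.894). Spry1, the gene of a receptor tyrosine kinase inhibitor that supports the return to quiescence, had 43.7 and 40.4 CPM in Jmjd3 KO, against 36.6 and 42.4 CPM in Tdt control (0.09 ± 0.08, edgeR adjusted p = 0.562). Cd34 stood at 304 and 301 CPM in Jmjd3 KO, against 286 and 299 CPM in Tdt control (0.05 ± 0.05, edgeR adjusted p = 0.652). Calcr and Spry1 overlapped between the groups, and the lower Jmjd3 KO value of Cd34 lay just above the higher control value. The remaining 14 quiescence members had log2 fold changes of -0.21, for the pyruvate dehydrogenase kinase gene Pdk4, to 0.19, for Tenm4.

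**Figure D2:**
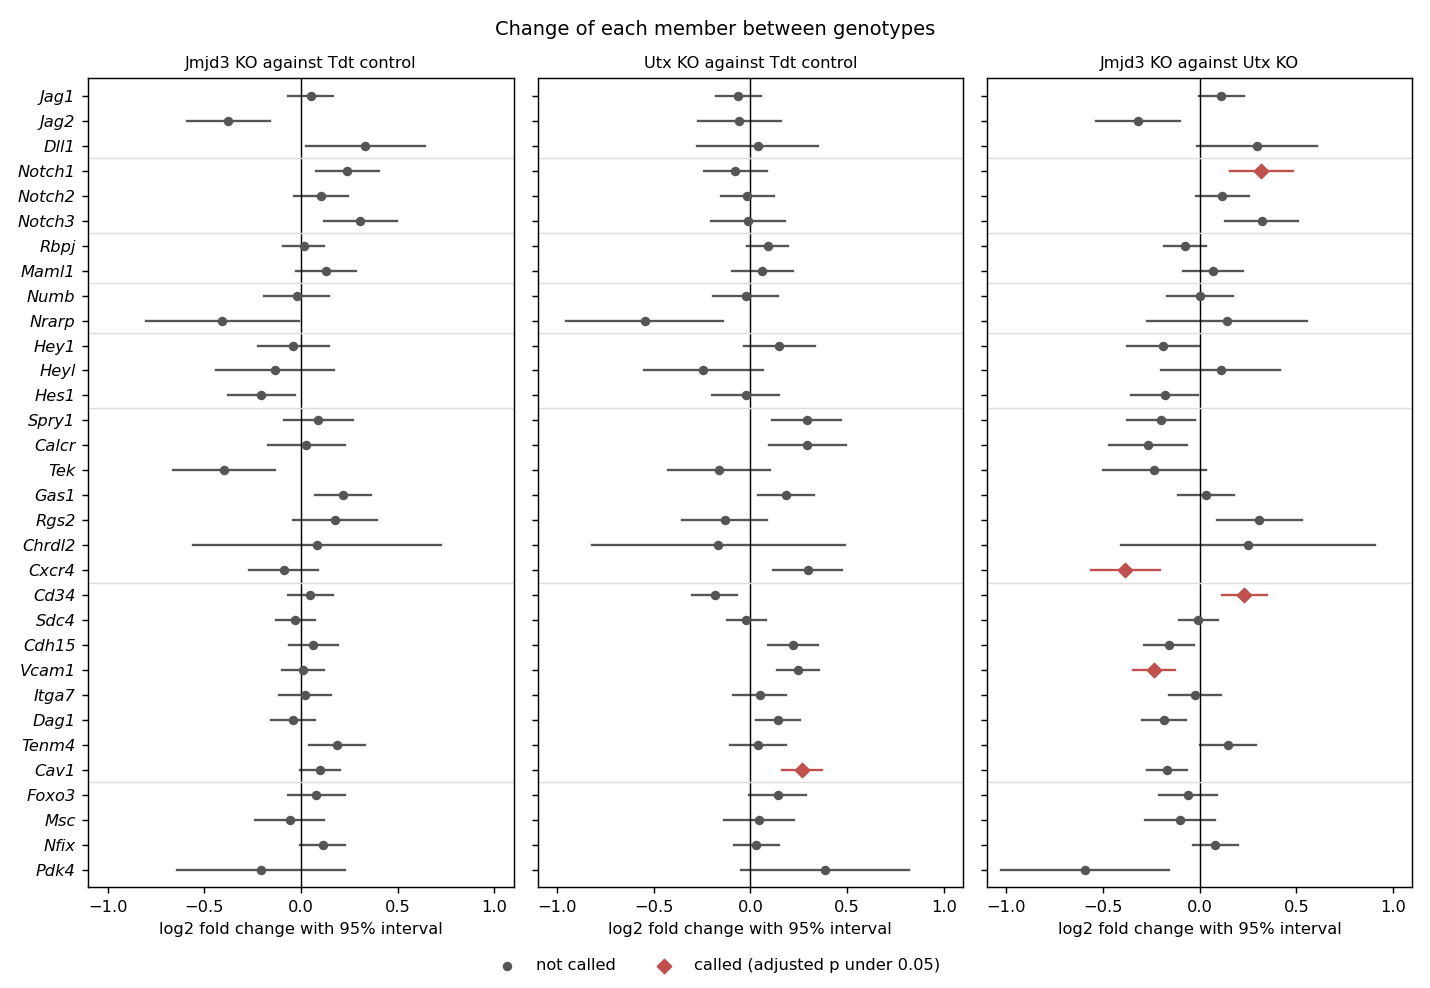
Log2 fold change of each member with its 95% interval (edgeR, all 6 libraries in 1 fit) for Jmjd3 KO against Tdt control, Utx KO against Tdt control and Jmjd3 KO against Utx KO, members ordered by role. Red diamonds pass an adjusted p of 0.05: 0, 1 and 4 members in the 3 panels, all within a log2 fold change of 0.4 of no change.

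Utx KO was compared with Tdt control in the same way, and this comparison shares its control libraries with the one before. Cav1, the gene of the main coat protein of caveolae, rose in Utx KO and was the 1 member of 32 called, where 1.72% of all genes tested were called, 0.790% as higher and 0.925% as lower. Cav1 (chr6:17306335-17341452) stood at 303 and 296 CPM in Utx KO, against 250 and 247 CPM in Tdt control (0.27 ± 0.04, edgeR adjusted p = 0.0350). Both Utx KO libraries lay above both controls, and the Jmjd3 KO libraries, at 263 and 270 CPM, lay between. The call ended when any 1 of the 6 libraries was left out (adjusted p of 0.0796 to 0.204), and with transcript length offsets or a fit to the 4 libraries compared (adjusted p of 0.0785 and 0.0756), while its log2 fold change stayed between 0.23 and 0.28. Cav1 is abundant in endothelial cells too, where 12 of 13 markers were below 0 in Utx KO, with a median of -0.43. By edgeR none of them was called and 5 were lower at an unadjusted p under 0.05, and DESeq2 called none. Their part in the Cav1 value was not tested.

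Some other surface and signalling genes of quiescence had values in the same direction without passing the test. Of the 19 quiescence members 14 were above 0 and 5 below, from -0.18 for Cd34 to 0.39 for Pdk4. Tek (-0.16) and Rgs2 (-0.13) were among those below 0. Vcam1 stood at 416 and 445 CPM in Utx KO, against 362 and 364 CPM in Tdt control (0.24 ± 0.05, edgeR adjusted p = 0.0506). It was called with RLE size factors and with a filter of 5 CPM in 2 libraries. Cxcr4, the gene of the chemokine receptor for CXCL12, stood at 117 and 103 CPM in Utx KO, against 91.6 and 87.4 CPM in Tdt control (0.30 ± 0.08, edgeR adjusted p = 0.117). Cxcr4 is also a gene of immune cells, and of 9 neutrophil markers 8 were above 0 in Utx KO, with a median of 0.40, 7 higher at an unadjusted p under 0.05 and 1, Hdc, called by edgeR. Of 10 macrophage and monocyte markers 8 were below 0, with a median of -0.31, none called by edgeR, 6 lower at an unadjusted p under 0.05 and 1, Cd68, called by DESeq2. The part of either cell type in the Cxcr4 value was not tested. Spry1 stood at 48.0 and 48.6 CPM in Utx KO, against 36.6 and 42.4 CPM in Tdt control (0.29 ± 0.08, edgeR adjusted p = 0.121). Calcr stood at 9.02 and 9.74 CPM in Utx KO, against 7.42 and 7.88 CPM in Tdt control (0.30 ± 0.09, edgeR adjusted p = 0.152). For Vcam1, Cxcr4, Spry1 and Calcr every Utx KO library lay above every control library. Cdh15, the gene of the satellite cell adhesion protein M-cadherin, stood at 177 and 182 CPM in Utx KO, against 148 and 160 CPM in Tdt control (0.22 ± 0.06, edgeR adjusted p = 0.109). Cd34 had the opposite sign, at 266 and 250 CPM in Utx KO, against 286 and 299 CPM in Tdt control (-0.18 ± 0.05, edgeR adjusted p = 0.132). Cd34 is also an endothelial and fibro-adipogenic gene. Of 10 fibro-adipogenic markers 8 were below 0 in Utx KO, with a median of -0.24. By edgeR 4 were lower and 2 higher at an unadjusted p under 0.05 and none was called. The 2 that DESeq2 called, Dpt and Gsn, were higher. The sums over the 10 markers were 357 and 410 CPM in Utx KO and 365 and 392 CPM in Tdt control. The part of these cells in the Cd34 value was not tested.

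DESeq2 called 6 members in Utx KO, Cav1, Cd34, Cdh15, Cxcr4, Spry1 and Vcam1, against 4.82% of its 13642 genes. The authors' deposited table has 4 under 0.05, against 4.21% of 14941 genes with an adjusted p there. In that table Cav1 had a log2 fold change of 0.21 (adjusted p = 0.00171), Vcam1 0.21 (adjusted p = 0.00329), Cxcr4 0.26 (adjusted p = 0.00917) and Cdh15 0.20 (adjusted p = 0.0220). The sizes in that table, from a model that is not stated, cannot be set against those of edgeR. With edgeR at an unadjusted p under 0.05 there were 10 members, 8 of them higher, against 16.2% of all genes and 7.66% higher. The median over the 19 quiescence members was 0.14 and over the 13 Notch members -0.02, against -0.002 over all genes. The groups did not overlap for 14 of 32 members, against 45.6% of all genes.

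None of the 13 Notch genes was called in Utx KO by edgeR or by DESeq2, and 1, Nrarp, was under an unadjusted p of 0.05. Notch1 stood at 150 and 165 CPM in Utx KO, against 174 and 158 CPM in Tdt control (-0.08 ± 0.07, edgeR adjusted p = 0.648). Notch2 stood at 348 and 364 CPM in Utx KO, against 380 and 340 CPM in Tdt control (-0.02 ± 0.06, edgeR adjusted p = 0.934). Notch3 stood at 119 and 136 CPM in Utx KO, against 123 and 135 CPM in Tdt control (-0.01 ± 0.08, edgeR adjusted p = 0.962). All 3 receptors overlapped between the groups, with 95% intervals within 1.5-fold, and the signs of Notch2 and Notch3 turned with transcript length offsets (0.01 and 0.02). Hes1 stood at 14.2 and 15.0 CPM in Utx KO, against 14.7 and 15.0 CPM in Tdt control (-0.02 ± 0.07, edgeR adjusted p = 0.911). Hey1 stood at 17.0 and 15.6 CPM in Utx KO, against 14.1 and 15.3 CPM in Tdt control (0.15 ± 0.08, edgeR adjusted p = 0.406). Heyl stood at 31.0 and 34.2 CPM in Utx KO, against 32.6 and 44.6 CPM in Tdt control (-0.24 ± 0.13, edgeR adjusted p = 0.420). The second control library is the high one for Heyl, and without it the log2 fold change was 0.01. Of 8 mural cell markers 7 were below 0 in Utx KO, with a median of -0.40, none called by edgeR, 5 lower at an unadjusted p under 0.05 and 1, Pdgfrb, called by DESeq2, and their part in the Heyl value was not tested. Nrarp had the largest difference of the Notch genes, at 1.38 and 1.33 CPM in Utx KO, against 1.97 CPM in both Tdt control libraries (-0.55 ± 0.17, edgeR adjusted p = 0.181), on at most 150 reads a library. The ligand and nuclear complex genes, with Numb, had log2 fold changes of -0.06 to 0.09.

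**Figure D3:**
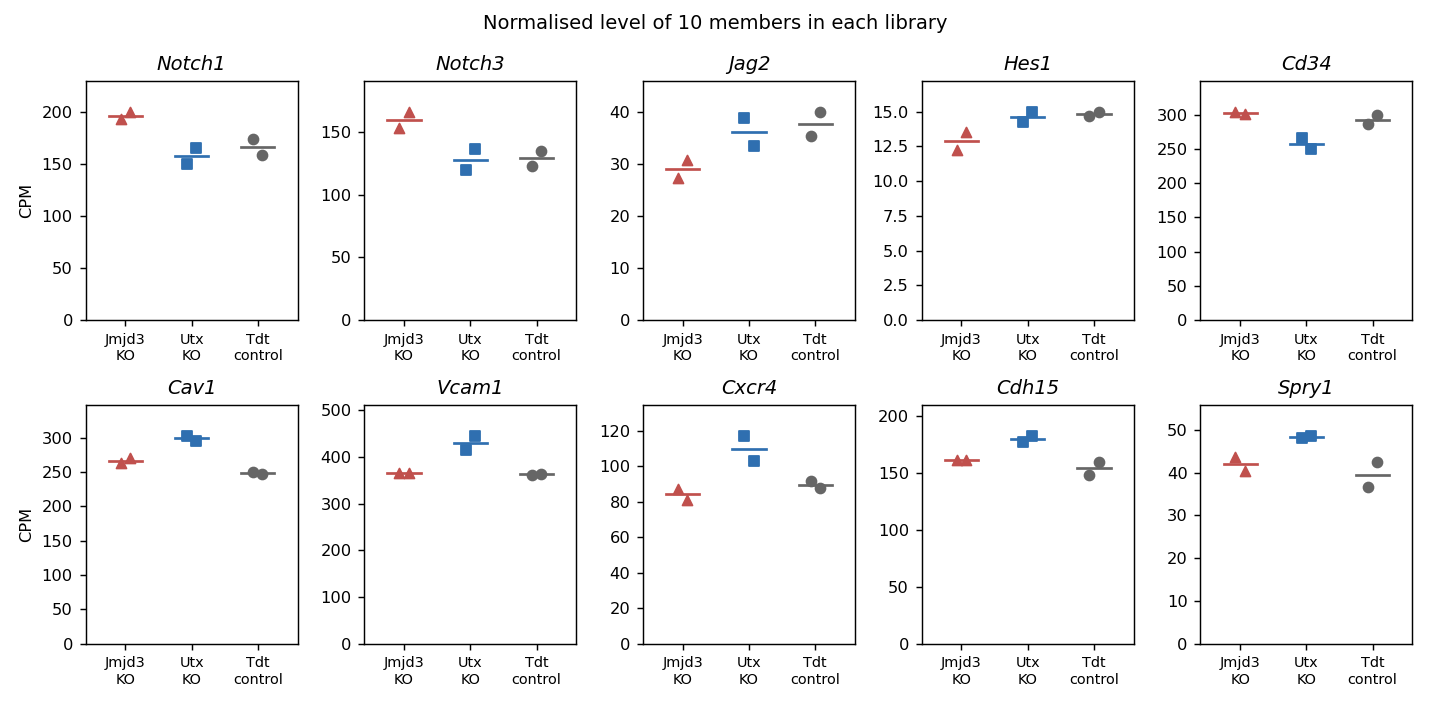
CPM of 10 members in each library, with axes from 0, for Jmjd3 KO, Utx KO and Tdt control (points are the 2 libraries, lines their mean). The Utx KO libraries stand above both other groups for Cav1, Vcam1, Cxcr4, Cdh15 and Spry1 and below them for Cd34, while the Jmjd3 KO libraries stand above both other groups for Notch1 and Notch3 and below them for Jag2 and Hes1.

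Jmjd3 KO was then set against Utx KO directly, which uses the levels of the 4 knockout libraries. Notch1 and Cd34 rose in Jmjd3 KO relative to Utx KO, and Cxcr4 and Vcam1 fell. These were 4 of 32 members, where 8.02% of all genes tested were called, 5.13% as higher and 2.89% as lower. Notch1 (chr2:26457903-26516663) had 193 and 200 CPM in Jmjd3 KO and 150 and 165 CPM in Utx KO (0.32 ± 0.07, edgeR adjusted p = 0.0351). Cd34 (chr1:194938819-194961279) had 304 and 301 CPM in Jmjd3 KO and 266 and 250 CPM in Utx KO (0.23 ± 0.05, edgeR adjusted p = 0.0340). Both genes had their Jmjd3 KO libraries above their Utx KO libraries. Cxcr4 (chr1:128588199-128592293) had 87.0 and 81.2 CPM in Jmjd3 KO and 117 and 103 CPM in Utx KO (-0.39 ± 0.08, edgeR adjusted p = 0.0251). Vcam1 (chr3:116109949-116129688) had 366 and 365 CPM in Jmjd3 KO and 416 and 445 CPM in Utx KO (-0.24 ± 0.05, edgeR adjusted p = 0.0246). None of the 4 genes overlapped between the knockouts, as was so for 26 of 32 members and 57.2% of all genes. At an unadjusted p under 0.05 there were 15 members, 11 of them lower in Jmjd3 KO, against 25.6% of all genes and 11.9% lower. Tdt control lay nearer to Jmjd3 KO for Vcam1, Cxcr4 and Cd34, and nearer to Utx KO for Notch1.

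These calls depended on single libraries. Notch1, Cd34 and Vcam1 were not called without Jmjd3 KO replicate 1, Jmjd3 KO replicate 2, Utx KO replicate 1 or Utx KO replicate 2 (adjusted p between 0.0520 and 0.191), nor with transcript length offsets (adjusted p from 0.0548 to 0.231), which gave Notch1 a log2 fold change of 0.19. Cxcr4 was not called without Jmjd3 KO replicate 1, Jmjd3 KO replicate 2 or Utx KO replicate 1 (adjusted p between 0.0875 and 0.157). Its log2 fold change stayed between -0.48 and -0.29. Markers of the other cell types differed in this comparison. Of 10 macrophage and monocyte markers 7 were called as higher in Jmjd3 KO, as were 3 of 10 fibro-adipogenic and 2 of 9 neutrophil markers, while 11 of 13 endothelial markers were above 0, with none called by edgeR, 4 under an unadjusted p of 0.05 and 2 called by DESeq2. Of 8 mural markers 7 were above 0, with a median of 0.31, none called by edgeR or DESeq2 and 3 higher at an unadjusted p under 0.05. Cxcr4 is an immune gene too, Vcam1, Cd34 and Notch1 are endothelial ones and Notch3 is a mural one, and the part of these cells in their values was not tested.

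Notch3 had a difference as large as that of Notch1 without a call, at 153 and 166 CPM in Jmjd3 KO and 119 and 136 CPM in Utx KO (0.32 ± 0.08, edgeR adjusted p = 0.0558), and Notch2 a smaller one (0.12 ± 0.06, edgeR adjusted p = 0.266). The targets Hes1 (-0.18 ± 0.07, edgeR adjusted p = 0.182), Hey1 (-0.19 ± 0.08, edgeR adjusted p = 0.187) and Heyl (0.11 ± 0.13, edgeR adjusted p = 0.665) were not called. Pdk4 had the largest difference of all members (-0.59 ± 0.19, edgeR adjusted p = 0.101). It had 109 and 111 CPM in Jmjd3 KO and 204 and 127 CPM in Utx KO, so that the first Utx KO library set most of the difference. Calcr (-0.27 ± 0.09, edgeR adjusted p = 0.104), Spry1 (-0.20 ± 0.08, edgeR adjusted p = 0.152) and Cav1 (-0.17 ± 0.04, edgeR adjusted p = 0.0624) were not called either. The median size of a member's change was 0.17, against 0.15 over all genes, and DESeq2 called 8 members, against 13.2% of its genes.

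**Figure D4:**
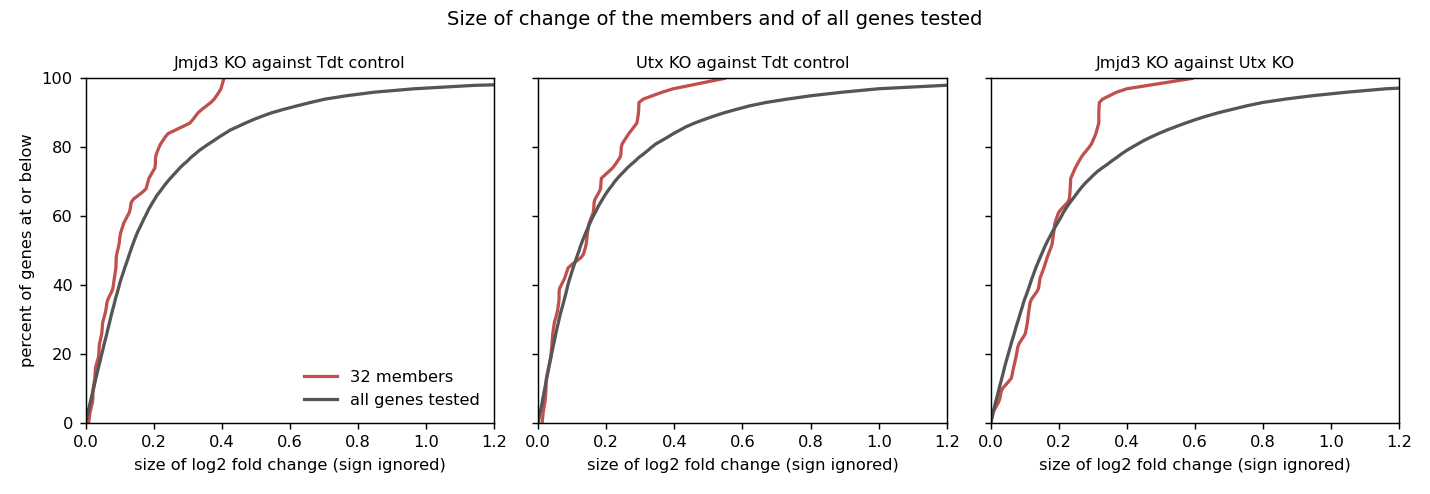
Percent of genes (vertical axis) with a log2 fold change, sign ignored, at or below the value on the horizontal axis, for the 32 members and for all 17084 genes tested in the 3 comparisons. The members reach their largest size at 0.41, 0.55 and 0.59 in the 3 panels, while the curve of all genes goes on beyond 1.2.

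The rest of the Notch pathway is a list of 53 genes, drawn up with earlier results of these data known, of which 46 could be tested. Against Tdt control, where 1.97% of all genes rose and 1.03% fell in Jmjd3 KO, this list had 1 gene that rose, Neurl1a, the gene of a ubiquitin ligase known from the fly protein Neuralized to act on Notch ligands (13.0 and 12.7 CPM in Jmjd3 KO, against 7.82 and 8.99 CPM in Tdt control; 0.61 ± 0.12, edgeR adjusted p = 0.0468). It had 1 that fell, Dlk1, the imprinted gene of a Delta-like surface protein (4.45 and 4.97 CPM in Jmjd3 KO, against 10.9 and 11.1 CPM in Tdt control; -1.22 ± 0.09, edgeR adjusted p = 9.16e-04). Dlk1 kept its call under all 13 alternatives, while Neurl1a lost it without each library of the 2 groups and with transcript length offsets (adjusted p from 0.0839 to 0.219). In Utx KO 0 of the 46 were called by edgeR, 13 were under an unadjusted p of 0.05, against 16.2% of all genes, and DESeq2 called Dll4 and Maml3 as lower. Between the knockouts 4 of the 46 were called, against 8.02% of all genes. Neurl1a (0.62 ± 0.13, edgeR adjusted p = 0.0264) and Lfng, the gene of a glycosyltransferase that modifies Notch receptors (0.67 ± 0.14, edgeR adjusted p = 0.0321), rose in Jmjd3 KO. Dlk1 (-1.55 ± 0.09, edgeR adjusted p = 2.40e-04) and Hes6, a gene of the Hes family (-0.35 ± 0.08, edgeR adjusted p = 0.0490), fell there. Dlk1 kept this call too, while Lfng lost it without each of the 4 knockout libraries, Neurl1a without all of these but Utx KO replicate 2, and Hes6 when any 1 of the 6 was left out (adjusted p between 0.0598 and 0.275). The median size of change over the 46 genes was 0.07, 0.09 and 0.10 in the 3 comparisons, against 0.13, 0.12 and 0.15 over all genes. Hes2, Hes3 and Hes5 had no reads in any library.

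Of 30 further genes linked to quiescence, 3 rose and 3 fell in Jmjd3 KO against Tdt control, where 1.97% of all genes rose and 1.03% fell. The list was drawn up with earlier results of these data known, so its counts beside these shares are descriptive and test nothing. The cell cycle inhibitor gene Cdkn1b (31.4 and 31.1 CPM in Jmjd3 KO, against 24.6 and 24.8 CPM in Tdt control; 0.34 ± 0.05, edgeR adjusted p = 0.0118), the growth factor receptor gene Fgfr4 (0.50 ± 0.07, edgeR adjusted p = 0.0158) and the antiproliferative gene Tob1 (0.46 ± 0.06, edgeR adjusted p = 0.0136) rose. The adhesion gene Ncam1 (-0.35 ± 0.04, edgeR adjusted p = 0.00812), the gene Gpx3 of a secreted glutathione peroxidase (-1.03 ± 0.13, edgeR adjusted p = 0.00824) and the hepatocyte growth factor receptor gene Met (-0.27 ± 0.04, edgeR adjusted p = 0.0189) fell. Tob1 and Gpx3 lie on chromosome 11, as do Kdm6b and Maml1, a member that was not called. Any part of this location in their values was not tested. Cdkn1b, Fgfr4, Tob1 and Met lost their calls without each library of the 2 groups, Gpx3 without either Jmjd3 KO library and Ncam1 without the first of them (adjusted p between 0.0517 and 0.128).

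In Utx KO 5 of these 30 genes, listed with earlier results of these data known, rose against Tdt control and 0 fell by edgeR. Over all genes 0.790% rose and 0.925% fell by edgeR. Of the 30, 5 were lower at an unadjusted p under 0.05, and DESeq2 called 2, Cdkn1a and Sdc3, as lower. Those that rose were Cdkn1b (0.36 ± 0.05, edgeR adjusted p = 0.0182), Adamts5, a matrix protease gene (0.62 ± 0.09, edgeR adjusted p = 0.0221), Fgfr4 (0.48 ± 0.07, edgeR adjusted p = 0.0279), Fgfr1 (0.31 ± 0.05, edgeR adjusted p = 0.0350) and Cdkn1c (7.35 and 10.7 CPM in Utx KO, against 4.78 and 4.18 CPM in Tdt control; 1.01 ± 0.18, edgeR adjusted p = 0.0396). The 5 genes lost their calls with the fit to the 4 libraries compared (adjusted p from 0.0516 to 0.0700). Leaving out any 1 of the 6 libraries ended them too (adjusted p from 0.0568 to 0.182), except for Cdkn1c without Utx KO replicate 1, Fgfr4 without Utx KO replicate 2 and Adamts5 without Tdt control replicate 2. The controls that both knockouts share had the lowest Cdkn1b and Fgfr4 values in both comparisons. Between the knockouts 4 of the 30 rose in Jmjd3 KO and 4 fell, against 5.13% and 2.89% of all genes. By smallest p these held Gpx3 (-1.25 ± 0.13, edgeR adjusted p = 0.00271), Met (-0.37 ± 0.04, edgeR adjusted p = 0.00338), Ncam1 (-0.36 ± 0.04, edgeR adjusted p = 0.00393), Tob1 (0.45 ± 0.06, edgeR adjusted p = 0.00891), Cdkn1a (0.32 ± 0.05, edgeR adjusted p = 0.0104) and Cdkn1c (-0.97 ± 0.18, edgeR adjusted p = 0.0191). Gpx3, Met and Ncam1 kept these calls without any 1 library, while Tob1, Cdkn1a and Cdkn1c lost them without either Jmjd3 KO library, Cdkn1a also without either Utx KO library and Cdkn1c without the second of those (adjusted p between 0.0510 and 0.113).

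Of 12 genes of activation and proliferation, Myod1, the myogenic regulator gene of activated satellite cells, fell in both knockouts against the shared controls (400 and 410 CPM in Jmjd3 KO and 407 and 403 CPM in Utx KO, against 469 and 473 CPM in Tdt control). Its log2 fold change was -0.22 ± 0.04 in each (edgeR adjusted p of 0.0336 in Jmjd3 KO and 0.0461 in Utx KO), and both calls ended when any 1 library was left out (adjusted p from 0.0539 to 0.209). In Utx KO Myf5 (0.44 ± 0.05, edgeR adjusted p = 0.0153) and Myog (0.98 ± 0.16, edgeR adjusted p = 0.0309), 2 further myogenic regulator genes, rose. Myf5 lost the call without each library of the 2 groups and Myog when any 1 of the 6 was left out (adjusted p from 0.0501 to 0.170). Between the knockouts 3 of the 12 fell in Jmjd3 KO, Myf5 (-0.50 ± 0.05, edgeR adjusted p = 0.00276), Myog (-1.08 ± 0.16, edgeR adjusted p = 0.00922) and the growth regulator gene Myc (-0.39 ± 0.08, edgeR adjusted p = 0.0270), where 2.89% of all genes did. Myf5 kept this call in every alternative, while Myog lost it without Jmjd3 KO replicate 2 or Utx KO replicate 1 (0.0584 and 0.0639) and Myc without either Jmjd3 KO library or Utx KO replicate 1 (0.107 to 0.155). The proliferation genes of the list, Mki67, Top2a, Cdk1, Ccnb1, Ccnd1, Mcm2 and Mcm5, were called in neither knockout against Tdt control by edgeR. In Jmjd3 KO against Tdt control 10 of the 12 genes were below 0 and 2 above, with a median of -0.11. By edgeR 6 were lower at an unadjusted p under 0.05, against 8.93% of all genes. DESeq2 called 4 as lower there, Myod1, Myc, Ncl and Ccnd1, the cyclin D1 gene, against 7.64% of its genes called in either direction. This list too was drawn up with earlier results of these data known.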

How the data were processed

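Per the submitters' processing notes, reads were trimmed with cutadapt 2.6 and quantified with Salmon 1.1.0, and the builds mm10 and GRCm38 and the tool DESeq2 1.28.1 are named. Each library was deposited as Salmon's estimated counts and TPM per transcript. The authors also deposited a table for each knockout against control with a log2 fold change and p-values, whose model no source used here states. Here the estimated counts were summed per gene with GENCODE M21 (139864 of 140748 transcripts matched; the rest held 0.151% to 0.175% of the reads) and rounded. Genes kept by filterByExpr were fitted in edgeR 4.0.16 (R 4.3.3; TMM, quasi-likelihood, all 6 libraries, 1 mean per group), with Benjamini-Hochberg adjustment over 17084 genes and a threshold of 0.05. The common coefficient of variation between libraries was 0.0844. Errors are SE, and intervals are 95%. The procedure was tested on simulated data.

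The alternatives were RLE size factors, no filter, a stricter filter (5 CPM in 2 libraries), offsets for transcript length, DESeq2 1.42.0, only the 4 libraries compared, a replicate block and leaving out each library. All members are named by role. Members called in any comparison, the receptors, Hes1, Hey1, Heyl, Calcr, Spry1 and Cd34 have every value printed, and of the wider lists at most 6 called genes per comparison are named, by smallest p. Gas1, Tek, Jag2, Dll1, Cdh15, Nrarp and Pdk4 were given in full after their values were seen. The members and lists were chosen with earlier results of these data known.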

Additional observations from a re-analysis of the deposited data

How the results depend on the processing

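Members called, 0 in Jmjd3 KO against Tdt control, were 7 with no filter on low counts and 3 with DESeq2, and 0 under every other alternative. In Utx KO against Tdt control the 1 call, Cav1, became 2 with RLE size factors and with the filter of 5 CPM, 9 with no filter, 6 with DESeq2, and 0 with transcript length offsets, with the replicate block and with only the 4 libraries compared. Leaving out 1 library gave 0 to 1 (the 1 was Pdk4, without Utx KO replicate 2). In Jmjd3 KO against Utx KO the 4 calls became 10 with no filter, 2 with offsets (Cxcr4 and Tenm4), 8 with DESeq2, 2 with the replicate block (Cxcr4 and Notch3) and 0 to 5 without 1 library. Over all genes, Jmjd3 KO had 513 calls, or 1872 with no filter, 331 with offsets, 1042 with DESeq2, 322 with the replicate block and 113 to 434 without 1 library. Utx KO had 293, or 1399 with no filter, 131 with offsets, 658 with DESeq2, 133 with the replicate block, 119 with only the 4 libraries compared and 16 to 96 without 1 library. The knockouts against each other had 1370, or 2856 with no filter, 792 with offsets and 291 to 1387 without 1 library. The block changed the other counts by less than 1.5 times. The replicate numbers are not known to pair samples: same-numbered deviations correlated at 0.114 between Jmjd3 KO and Tdt control, -0.119 between Utx KO and Tdt control and 0.00932 between the knockouts. The median member change between the knockouts, -0.02, ran from -0.0579 to -0.0119 without 1 library.

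Turns of sign are listed here for all members except Jag1, Rbpj, Maml1, Numb, Chrdl2, Sdc4, Itga7, Foxo3, Msc and Nfix. The signs of those genes under the alternatives are not given. With offsets the sign turned in Utx KO for Jag2 (0.0353), Notch2 (0.0109), Notch3 (0.0194), Rgs2 (0.0638) and Tenm4 (-0.0159). Leaving out 1 library turned signs in Jmjd3 KO for Hey1 (-0.0996 to 0.0294), Calcr (-0.0171 to 0.0781), Spry1 (-0.0144 to 0.208), Heyl (-0.346 to 0.115) and Dag1 (-0.101 to 0.0299). It did so in Utx KO for Notch2 (-0.0854 to 0.0674), Notch3 (-0.110 to 0.0794), Jag2 (-0.167 to 0.0471), Dll1 (-0.136 to 0.250), Heyl (-0.453 to 0.0074), Tenm4 (-0.0277 to 0.122) and Hes1 (-0.0601 to 0.0104), and between the knockouts for Gas1 (-0.0327 to 0.0957). None of these changes was called by the settings named in this paragraph, and with no filter Heyl was called in Utx KO (-0.24, adjusted p = 0.0253). The cause of the differences between settings was not tested, except that leaving out a library leaves 1 in a group, whose spread is then taken from the other groups. The 2 libraries a group and, for Nrarp, Tek and Chrdl2, low read numbers limit what can be seen. The exons of 15 members overlap 17 other genes, 16 of them on the opposite strand in reads of unstated strandedness, of which Gm9947 at Msc reached 1.34 TPM and the others at most 0.544 TPM.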

Other observations

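Of the quiescence members, 3 lie near one end of chromosome 6, Calcr (3685680 to 3764714), Pdk4 (5483351 to 5496309) and Cav1 (17306335 to 17341452), and their log2 fold changes in Utx KO against Tdt control were 0.30 ± 0.09, 0.39 ± 0.19 and 0.27 ± 0.04. Of these, Cav1 was called by edgeR, and the value of Pdk4 was 0.0033 without Utx KO replicate 1. This grouping was noticed after the values were seen. Salmon's split between transcripts varied between libraries for low members: Tek-201 took 15.5% and 26.4% of the TPM of Tek in Jmjd3 KO, 56.1% and 22.5% in Utx KO and 21.8% and 20.4% in Tdt control, and Calcr-203 took 27.3% and 23.7% of the TPM of Calcr in Jmjd3 KO, 0% in both Utx KO libraries and 18.4% and 0% in Tdt control. For 16 members 1 transcript held at least 90% of the TPM on average.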
